A study of Mus musculus with 9 samples.

Results

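Transcripts of 8 enzymes that act on arginine, tryptophan and the citrate cycle were followed in mouse dendritic cells given tumor DNA. They were Nos2, Arg1, Arg2, Ass1, Gch1, Odc1, Ido1 and Acod1. Every probe set whose single gene symbol in the platform annotation is one of these names was taken, which gave 12 probe sets for the 8 genes, out of 18193 genes with such a probe set. A further probe set that lists Ass1 with another symbol was not used. The 3 groups, of 3 arrays each, were STING knockout cells given purified tumor-cell DNA, wild-type cells given the same DNA, and unstimulated wild-type cells in media. All cells were of the 129/SvEv strain background and were grown from bone marrow with GM-CSF, a myeloid growth factor, for 9 to 12 days. The DNA was carried into the cells with a lipid transfection reagent and left for 7 h. Neither unstimulated knockout cells nor cells treated with the reagent without DNA were analysed here: DNA and reagent cannot be told apart, nor can a difference of genotype that is there without DNA from one that needs it. The labels number the arrays 1 to 3 in each group but name no separate mice or cultures behind them. The p-values therefore cover the variation among these arrays, part or all of which may be technical.

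STING is an adaptor protein through which DNA in the cytosol induces interferon and inflammatory genes. In mouse myeloid cells arginine has competing fates: nitric oxide synthase makes nitric oxide from it, with tetrahydrobiopterin as cofactor, while the arginases turn it into ornithine, from which ornithine decarboxylase makes polyamines. IDO1 opens the kynurenine pathway of tryptophan breakdown, and the product of Acod1 takes cis-aconitate out of the citrate cycle and makes itaconate, a metabolite of activated macrophages and dendritic cells.

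Acod1 and Gch1 were the members that passed the test in both comparisons with wild-type cells given DNA and that also had a promoter entry, so their upstream sequences are shown, read from RefSeq on GRCm38.p6. Of the 8 members, 4 matched an entry (Acod1, Gch1, Ass1 and Odc1). Each window holds the 250 bases before the gene start, written 5′ to 3′ on the gene's strand, and capitals mark the letters TATAAA of a TATA box on either strand. The Acod1 window lies at chr14:103046762-103047011 on the plus strand and the Gch1 window at chr14:47189414-47189663 on the minus strand.
Acod1: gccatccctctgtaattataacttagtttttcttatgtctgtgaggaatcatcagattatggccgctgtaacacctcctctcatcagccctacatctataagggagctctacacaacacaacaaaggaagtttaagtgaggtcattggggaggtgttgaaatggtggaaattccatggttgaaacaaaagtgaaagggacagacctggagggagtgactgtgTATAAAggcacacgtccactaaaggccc
Gch1: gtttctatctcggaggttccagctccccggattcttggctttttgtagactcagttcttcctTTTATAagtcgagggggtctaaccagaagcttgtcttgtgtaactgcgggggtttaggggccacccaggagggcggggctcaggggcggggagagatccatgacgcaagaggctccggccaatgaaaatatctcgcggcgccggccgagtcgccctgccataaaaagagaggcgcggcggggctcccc

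The windows differ in make-up. Acod1 has 44.4% G and C and 2 CpG dinucleotides, and Gch1 has 59.2% and 17, where the median over the 32841 promoters of the table is 52.4% and 6. In Acod1 the TATAAA match begins 28 bases before the gene start. In Gch1 the match is on the opposite strand, where it reads TTTATA, and begins 188 bases before the start. TATAAA occurs on either strand in 12.4% of all promoter windows of this length. Searches on both strands covered GAAA, any 2 bases and GAAA (an interferon-stimulated response element core, in 2.98% of windows), TTC, any 3 bases and GAA (a gamma-activated site, in 7.02%), and GGG, any 2 bases and TTTCC (an NF-kappaB site, in 1.41%). They found none of these letters in the windows of Acod1, Gch1, Ass1 or Odc1. The E-box CACGTG, in 6.02% of windows, was found in Ass1 alone of the 4, 36 bases before its start. A match or its absence describes these letters in this window and says nothing of a factor's binding.

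The arrays were Affymetrix mouse arrays summarised as MAS5 signals, an arbitrary brightness unit, and every array had been scaled to the same trimmed mean (500). Differences are of log2(signal + 16), a scale that understates the change of dim probe sets, and are given with their standard error from limma. A gene was called at a Benjamini-Hochberg adjusted p below 0.05 over the 12586 genes that passed a filter on low signals. Sting1, the targeted gene, read 246, 336 and 327 in the knockout arrays and 2260, 1060 and 1160 in wild-type arrays given DNA, a difference of -2.17 ± 0.35 (limma adjusted p = 0.0016). Against media arrays, at 1520, 1080 and 646, the knockout difference was -1.72 ± 0.35 (limma adjusted p = 0.094, and 0.032 with the array number as a block). The summed signal of 10 dendritic cell markers was 56700 to 77400 in knockout arrays, 73600 to 95000 in wild-type arrays with DNA and 72300 to 82900 in media, with Flt3 below the array median on all 9 arrays. Macrophage markers (8 of 9 measured) summed to 60600 to 87200, 81900 to 110000 and 65300 to 94400 in knockout, wild-type DNA and media arrays. In RNA from whole cultures, fewer cells of a type and less RNA per cell cannot be told apart.

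Of the 8 members, 7 passed the filter. In wild-type cells 3 of these 7 rose with tumor DNA (Arg2, Gch1 and Acod1) and 0 fell, beside 33.6% of all 12586 genes called (9.94% higher and 23.6% lower). In knockout cells given DNA 2 of the 7 were lower than in wild-type cells given DNA (Gch1 and Acod1) and 0 were higher, beside 31.5% of all genes called (21.8% higher and 9.73% lower). Between knockout cells given DNA and wild-type cells in media 0 of the 7 were called by limma at the adjusted threshold, beside 0.429% of all genes. By the probe sets that stand for the genes, 0 of the 7 had an unadjusted p below 0.05 in that last comparison. The comparisons share arrays: the wild-type arrays given DNA enter both of the first, with opposite signs.

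**Figure D1:**
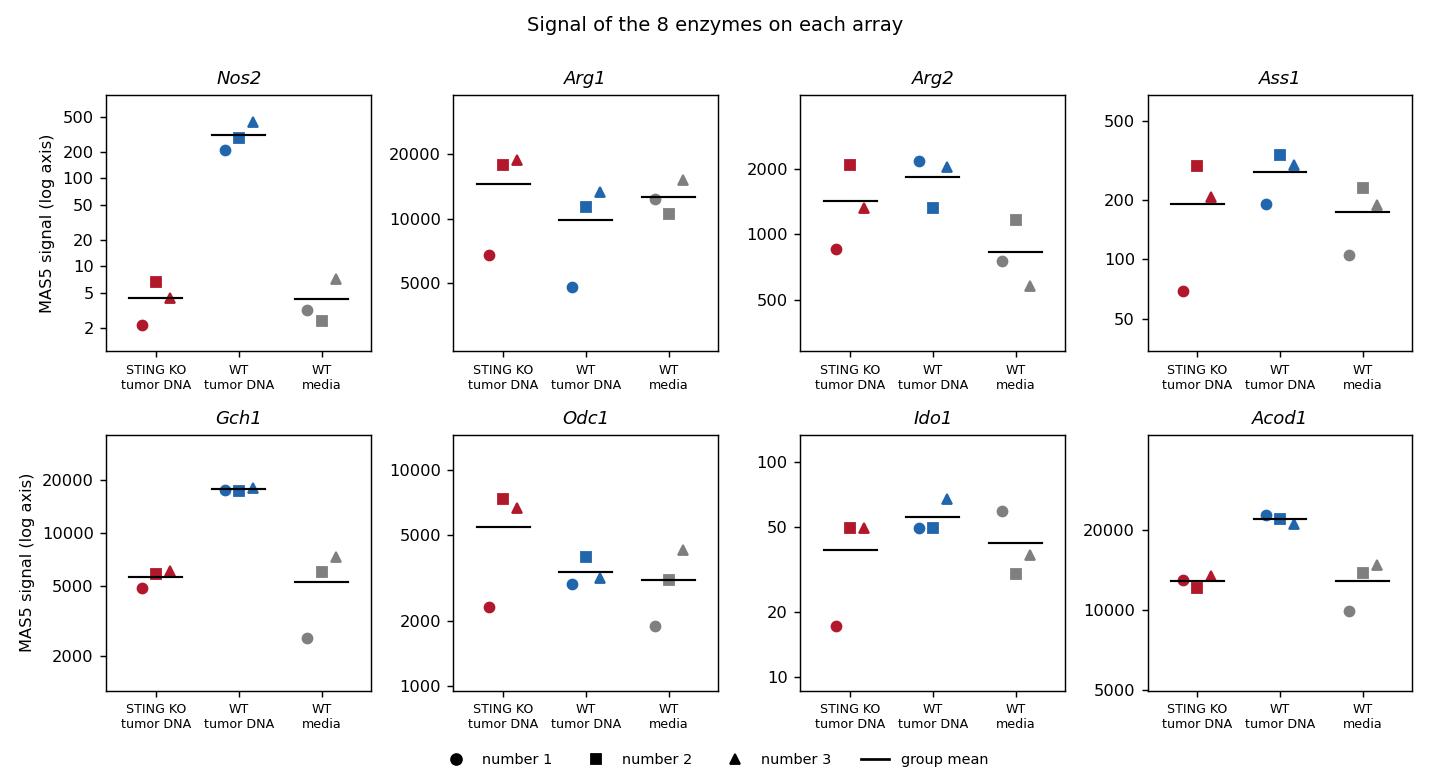
MAS5 signal (log axis) of the 8 enzymes on each of the 9 arrays; points are arrays, shapes are array numbers and lines are group means. The wild-type arrays given tumor DNA stand above all 6 others for Nos2, Gch1 and Acod1, and overlap them for Arg1, Arg2, Ass1, Odc1 and Ido1.

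Nos2 encodes the inducible nitric oxide synthase. It read 2.15, 6.53 and 4.36 in the knockout arrays given DNA, against 208, 284 and 438 in the wild-type arrays given DNA, and 3.18, 2.36 and 7.19 in the wild-type arrays in media. All 3 wild-type arrays with DNA lay far above the other 6, which were all below their array's median signal and are not shown to lie above background. Its mean log2 level of 5.65 fell just under the filter at 5.67, so it was tested in a fit over all 45037 probe sets without a filter. There it was higher in wild-type cells with DNA than in media by 3.96 ± 0.33 (limma adjusted p = 0.00021) and differed between knockout and wild-type cells with DNA by -3.95 ± 0.33 (limma adjusted p = 9.2e-05). In that fit 14% and 13.3% of all probe sets were called. The size rests on the constant added before the logarithm: with 64 in place of 16 the differences were 2.41 and -2.41, and with none 6.29 and -6.23. Within each array number the rise was 3.55, 4.03 and 4.29. Knockout cells with DNA and wild-type cells in media differed by 0.01 ± 0.33, between signals that are both in the background range.

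Gch1 encodes GTP cyclohydrolase, the first step in making tetrahydrobiopterin, the cofactor of nitric oxide synthase. It read 4850, 5860 and 6060 in the knockout arrays given DNA, 17600, 17400 and 18100 in the wild-type arrays given DNA, and 2550, 5980 and 7340 in media. The 3 wild-type arrays with DNA were tightly grouped and above all others, while knockout and media arrays overlapped. Gch1 rose 3.67-fold with DNA in wild-type cells (1.88 ± 0.32 in log2, limma adjusted p = 0.0024) and differed between knockout and wild-type cells with DNA by -1.67 ± 0.32 (limma adjusted p = 0.0036). Knockout cells with DNA and wild-type cells in media differed by 0.21 ± 0.32, with a 95% interval of -0.5 to 0.92 (limma adjusted p = 0.97). A second probe set read 833, 884 and 926 in knockout arrays, 2640, 2200 and 2470 in wild-type arrays with DNA, and 509, 946 and 1200 in media. It gave 1.52 ± 0.26 for DNA against media (limma adjusted p = 0.0036) and -1.45 ± 0.26 for knockout against wild type (limma adjusted p = 0.0042), in the direction of the first. The calls of this second probe set were lost without the arrays numbered 2 (limma adjusted p = 0.051 and 0.063), and the second of them also without those numbered 3 (limma adjusted p = 0.056).

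Arg1 encodes the cytosolic arginase, a marker of alternatively activated macrophages in mice. It read 6750, 17800 and 18800 in knockout arrays, 4830, 11300 and 13400 in wild-type arrays with DNA, and 12400, 10500 and 15100 in media. The array numbered 1 was the lowest in both groups given DNA, and the groups overlapped. No comparison passed the test: wild-type cells with DNA differed from media by -0.48 ± 0.44 (95% interval -1.46 to 0.51, limma adjusted p = 0.44) and knockout from wild-type cells with DNA by 0.54 ± 0.44 (95% interval -0.44 to 1.52, limma adjusted p = 0.39). Against media, knockout cells with DNA gave 0.06 ± 0.44 (95% interval -0.92 to 1.05, limma adjusted p = 0.99).

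Arg2 encodes the mitochondrial arginase. It read 854, 2080 and 1320 in knockout arrays, 2180, 1320 and 2030 in wild-type arrays with DNA, and 753, 1160 and 579 in media. All 3 wild-type arrays with DNA lay above the media arrays, and the knockout arrays overlapped both groups. Arg2 rose 2.23-fold in wild-type cells (1.16 ± 0.35 in log2, limma adjusted p = 0.029). This call rested on few arrays: it was lost without wild-type array 1 or 3 given DNA (limma adjusted p = 0.095 and 0.084), without media array 1 or 3 (limma adjusted p = 0.076 and 0.099), and without all arrays numbered 1 or 3 (limma adjusted p = 0.11 and 0.27). Within numbers the difference was 1.52, 0.18 and 1.78. Knockout cells with DNA differed from wild-type cells with DNA by -0.43 ± 0.35 (95% interval -1.22 to 0.35, limma adjusted p = 0.39), and by 0.02 without the arrays numbered 1. Against wild-type cells in media, knockout cells with DNA gave 0.73 ± 0.35 (95% interval -0.06 to 1.51, limma adjusted p = 0.69). A second Arg2 probe set read 445, 1100 and 940 in knockout arrays, 1500, 848 and 1450 in wild-type arrays with DNA, and 386, 613 and 477 in media. It gave 1.32 ± 0.34 for DNA against media (limma adjusted p = 0.026) and -0.66 ± 0.34 for knockout against wild type (limma adjusted p = 0.26). For knockout with DNA against media it gave 0.66 ± 0.34 (95% interval -0.09 to 1.41, limma adjusted p = 0.86). The call of this probe set for DNA against media was lost without a variance trend (limma adjusted p = 0.052), without array 1 or 3 of either wild-type group (highest limma adjusted p = 0.093) and without the arrays numbered 1 or 3 (limma adjusted p = 0.064 and 0.23).

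Ass1 encodes argininosuccinate synthase, which with Asl rebuilds arginine from citrulline, the by-product of nitric oxide synthesis. It read 69, 295 and 207 in knockout arrays, 190, 335 and 299 in wild-type arrays with DNA, and 105, 228 and 188 in media. Within every array number the wild-type array with DNA was the highest of its 3, and array 1 was the lowest in each group, so that the groups overlapped. Without the array number in the model the differences were 0.64 ± 0.46 for DNA against media and -0.65 ± 0.46 for knockout against wild type (limma adjusted p = 0.32 for both). With the number as a block both were called (limma adjusted p = 0.047 for both). Within numbers the first difference was 0.77, 0.53 and 0.63.

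Odc1, ornithine decarboxylase, commits ornithine to the polyamines. Its probe set with the highest mean read 2320, 7330 and 6660 in knockout arrays, 2970, 3970 and 3180 in wild-type arrays with DNA, and 1900, 3100 and 4250 in media. Knockout arrays 2 and 3 stood above all others, knockout array 1 stood among the low ones, and the groups overlapped. DNA against media gave 0.19 ± 0.42 (limma adjusted p = 0.76) and knockout against wild type 0.53 ± 0.42 (limma adjusted p = 0.37). The second difference was called without knockout array 1 (1.06, limma adjusted p = 0.026) or without all arrays numbered 1 (0.97, limma adjusted p = 0.012). For knockout with DNA against media the same probe set gave 0.72 ± 0.42 (95% interval -0.22 to 1.66, limma adjusted p = 0.78). A second probe set, with 2830, 7050 and 6670 in knockout arrays, 2470, 3170 and 2280 in wild-type arrays with DNA, and 1850, 3170 and 3190 in media, gave 0.96 ± 0.34 for knockout against wild type (limma adjusted p = 0.091, and 0.011 with the array number as a block). Between knockout cells with DNA and wild-type cells in media this probe set gave 0.94 ± 0.34, with a 95% interval of 0.2 to 1.68 (limma adjusted p = 0.62). The third gave 0.24 for knockout against wild type with DNA, from 272, 608 and 587 in knockout arrays and 409, 461 and 311 in wild-type arrays with DNA. Its direction turned to -0.03 under quantile normalization.

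Ido1 encodes indoleamine dioxygenase, which in dendritic cells is known for limiting T cell responses. It read 17.2, 49.6 and 49.6 in knockout arrays, 49.3, 49.5 and 67.4 in wild-type arrays with DNA, and 59.6, 30 and 37.1 in media. All 3 knockout arrays, 2 of 3 wild-type arrays with DNA and all 3 media arrays were below their array's median, so the transcript was not shown to lie above background in any group. DNA against media gave 0.32 ± 0.35 (95% interval -0.47 to 1.11, limma adjusted p = 0.53) and knockout against wild type -0.44 ± 0.35 (95% interval -1.23 to 0.35, limma adjusted p = 0.38). For knockout with DNA against media it was -0.12 ± 0.35 (95% interval -0.91 to 0.67, limma adjusted p = 0.98).

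Acod1 encodes the mitochondrial enzyme that makes itaconate. It read 13000, 12100 and 13400 in knockout arrays, 22800, 22000 and 21000 in wild-type arrays with DNA, and 9940, 13700 and 14800 in media. The wild-type arrays with DNA were the 3 highest, and the knockout and media arrays overlapped. Acod1 rose 1.74-fold with DNA (0.80 ± 0.14 in log2, limma adjusted p = 0.0031) and differed between knockout and wild-type cells with DNA by -0.77 ± 0.14 (limma adjusted p = 0.0032). Knockout cells with DNA and media cells differed by 0.02 ± 0.14, with a 95% interval of -0.30 to 0.34. Across the 9 arrays Acod1 and Gch1 followed each other at r = 0.98, a description of arrays that share groups and carry no p.

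**Figure D2:**
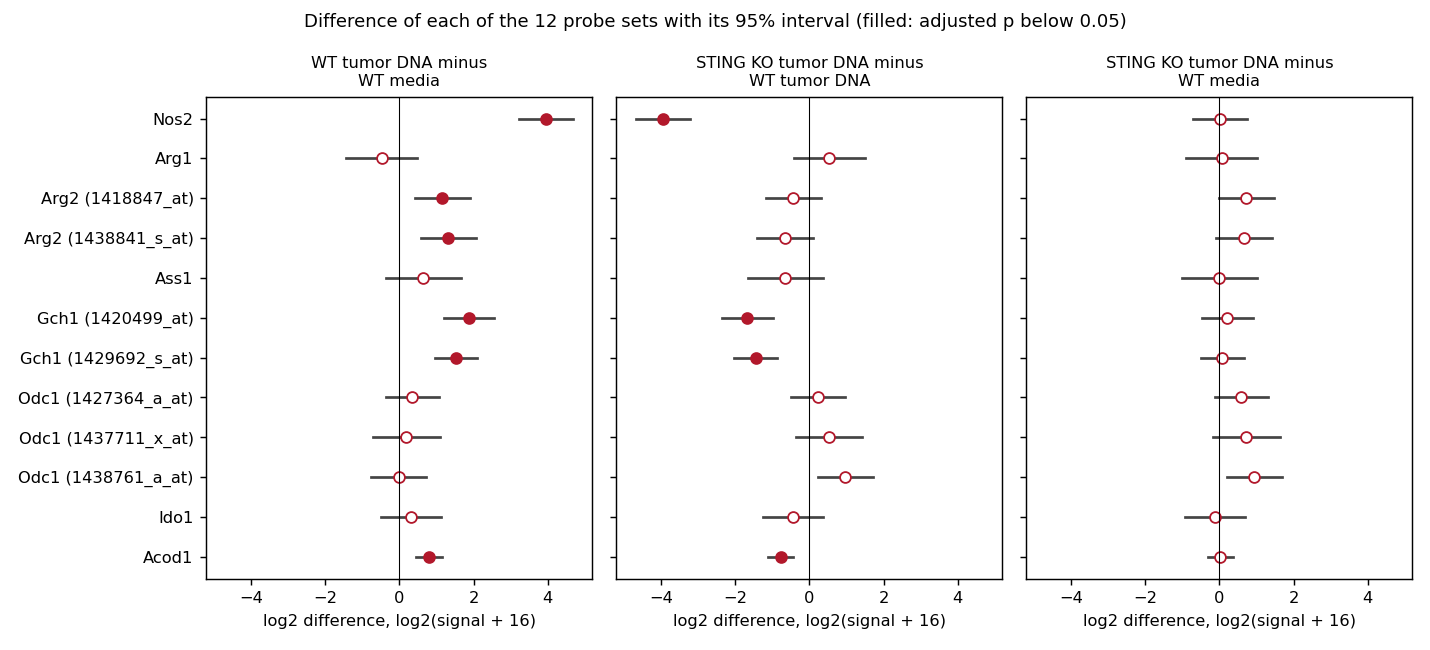
Difference of log2(signal + 16), with 95% intervals, of each member probe set in the 3 comparisons, from the fit over all probe sets. Nos2 at 3.96 and -3.95 has the widest changes, Gch1 and Acod1 lie clear of 0 in the first 2 comparisons, and between knockout cells given DNA and wild-type cells in media 0 of the 12 probe sets passed the test.

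The knockout array numbered 1 was the lowest knockout array for 7 of the 8 members, all but Acod1. A spiked hybridisation control also read higher on the arrays numbered 1 (307 to 431) than on the others (87.3 to 157), and its part in these values was not tested. Leaving knockout array 1 out added Odc1 to the members called between knockout and wild-type cells with DNA. The count then became 4, against 2, since Nos2, called with or without that array in the unfiltered fit, also passed the filter. Of all genes 3359 were then called, against 3970. Nos2 owes its mean level, on which the filter works, to the wild-type arrays with DNA. Acod1 and Gch1, by their probe sets with the highest mean, and Nos2 were called in both comparisons with wild-type cells given DNA under every alternative run for them (11 for Acod1 and Gch1, 8 for Nos2) and with any array or array number left out. Their highest adjusted p from limma were 0.048 for Acod1, 0.041 for Gch1 and 0.022 for Nos2.

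The other genes of the pathways were 78, of which 66 were tested. In wild-type cells 7 rose and 21 fell with DNA, 42.4% of the 66 beside 33.6% of all genes called (9.94% higher and 23.6% lower). Their median difference was -0.41 beside -0.20 over all genes. In knockout against wild-type cells with DNA 22 were higher and 9 lower, 47% beside 31.5% of all genes called (21.8% higher and 9.73% lower). The median there was 0.37 beside 0.20. Between knockout cells with DNA and wild-type cells in media limma called 0 of the 66, with 8 at an unadjusted p below 0.05 and a median of 0.01. With the array number as a block limma called 1 of them in that comparison, Gatm. In the first comparison the block gave 7 higher and 31 lower, and in the second 26 higher and 10 lower. The direction of all genes depends on scaling: with each array centred on the median of the probe sets past the filter, an alternative chosen after seeing the data, the median of all genes was 0.11 in the first comparison and -0.06 in the second, and 58.4% and 44.6% of all calls were higher, against 29.6% and 69.2% as deposited. Under that centring the pathway genes gave 8 higher and 10 lower in the first comparison and 13 higher and 10 lower in the second.

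**Figure D3:**
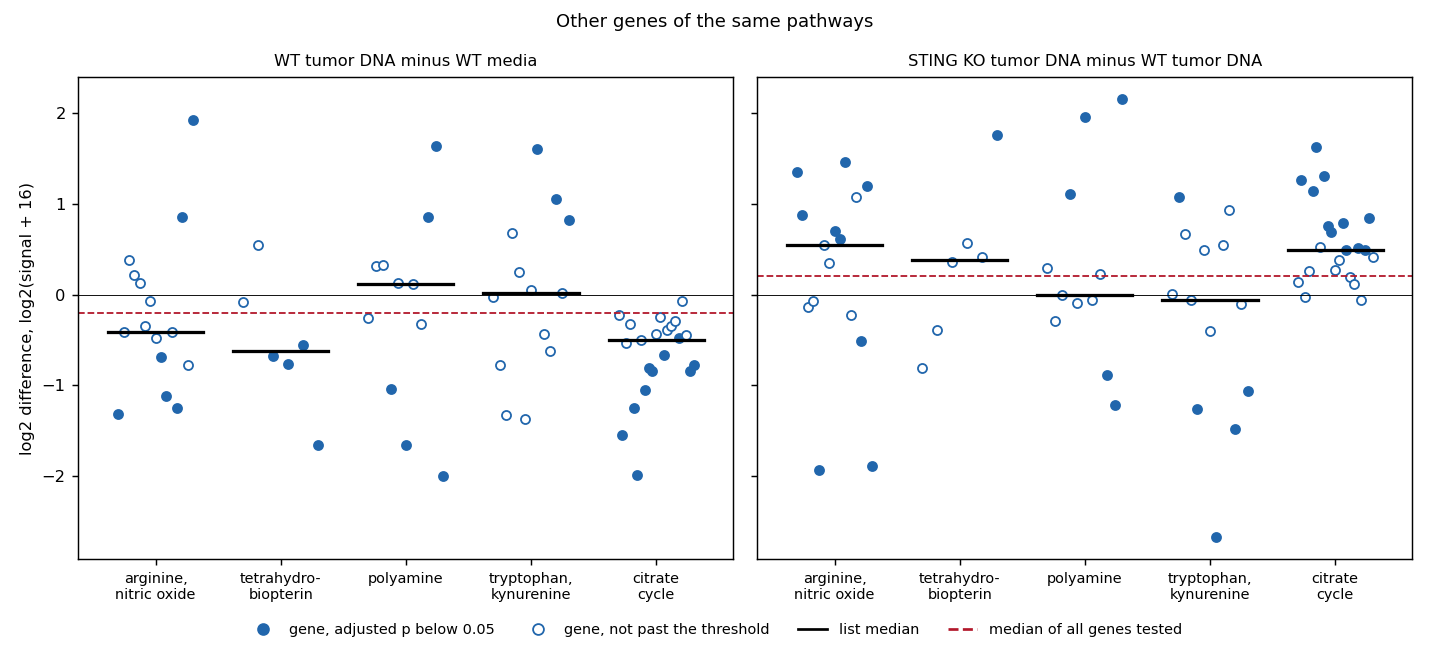
Difference of log2(signal + 16) of the 66 other pathway genes tested, by list, in 2 comparisons; filled points passed the test, black lines are list medians and the dashed line is the median of all genes (-0.20 and 0.20). The median of the itaconate and citrate cycle list, labelled citrate cycle (-0.50 and 0.49), lies below the all-gene median on the left and above it on the right.

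Of the arginine and nitric oxide genes 15 of 20 were tested. In wild-type cells 2 rose with DNA and 4 fell, and in knockout against wild-type cells 6 were higher and 3 lower. These were 40% and 60% of the 15, beside 33.6% and 31.5% of all genes called. With the array number as a block 2 rose and 6 fell, and 7 were higher and 3 lower. Slc7a2, the inducible cationic amino acid transporter that brings arginine into macrophages, read 2630, 6920 and 7460 in knockout arrays, 19800, 16900 and 20700 in wild-type arrays with DNA, and 3360, 4550 and 8240 in media. The wild-type arrays with DNA were the 3 highest. The transporter rose by 1.92 ± 0.41 with DNA (limma adjusted p = 0.0062, and 0.051 without the arrays numbered 2) and differed between knockout and wild-type cells by -1.89 ± 0.41 (limma adjusted p = 0.0064). Its 3 other probe sets gave 2.61 to 3.07 for DNA against media and -2.74 to -1.99 for knockout against wild type. Slc3a2, the heavy chain shared by several amino acid exchangers, also rose with DNA, by 0.85 ± 0.14 (limma adjusted p = 0.0018).

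Other genes that supply or use arginine moved in several ways. Prmt1, the main arginine methyltransferase, fell with DNA by 1.12 on the log2 scale (limma adjusted p = 0.0031, and 0.053 without the arrays numbered 3) and was 1.46 ± 0.20 higher in knockout than in wild-type cells (limma adjusted p = 0.00079). Asl, the partner of Ass1, was 0.87 ± 0.16 higher in knockout cells (limma adjusted p = 0.0031, and 0.052 or 0.062 without the arrays numbered 2 or 3). For DNA against media Asl gave -0.41 ± 0.16 (limma adjusted p = 0.076, and called with the number as a block at 0.044). Oat, which turns ornithine toward proline and glutamate, fell with DNA by 0.69 (limma adjusted p = 0.0077), and by 0.38 without a call under centring on the median of the probe sets past the filter (limma adjusted p = 0.092). Slc7a1, the constitutive arginine transporter, was higher in knockout cells by 1.19 ± 0.35 (limma adjusted p = 0.026), and its other probe set gave 1.09 (limma adjusted p = 0.14). The call was lost without single arrays (highest limma adjusted p = 0.18 with arrays left out). It was also lost under quantile normalization, centring on the median of the probe sets past the filter and the mean of its probe sets (limma adjusted p = 0.071, 0.081 and 0.051). For DNA against media Slc7a1 gave -0.77 ± 0.35 (limma adjusted p = 0.11, and 0.008 with the block). Gatm, which opens creatine synthesis from arginine, differed by 0.13 ± 0.43 between DNA and media (limma adjusted p = 0.84) and was lower in knockout than in wild-type cells, at -1.93 ± 0.43 (limma adjusted p = 0.0077, and 0.073 without the arrays numbered 1). It read 307, 787 and 419 in knockout arrays, 2310, 2180 and 1200 in wild-type arrays with DNA, and 2150, 2290 and 923 in media, so the knockout arrays lay below both wild-type groups. Knockout cells with DNA and wild-type cells in media differed by -1.79 ± 0.43 in Gatm (limma adjusted p = 0.18, and 0.022 with the array number as a block). Aldh18a1, a step of proline and ornithine synthesis, fell with DNA by 1.31 (limma adjusted p = 0.029), a call lost with single arrays left out or under quantile normalization (limma adjusted p = 0.074 under the last). Its 4 other probe sets gave -1.23 to 0.2 for DNA against media, none of them called.

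Of the tetrahydrobiopterin genes 6 of 7 were tested, and 4 fell with DNA in wild-type cells while 0 rose. In knockout against wild-type cells 1 was higher (Spr) and 0 were lower. The shares called were 66.7% and 16.7% of the 6, beside 33.6% and 31.5% of all genes. With the array number as a block 2 were higher (Spr and Pts) and 1 was lower (Gchfr). Pts gave 0.57 there (limma adjusted p = 0.048, against 0.087 without the block). Spr, sepiapterin reductase, which completes the cofactor that Gch1 begins, read 506, 626 and 518 in knockout arrays, 130, 223 and 119 in wild-type arrays with DNA, and 503, 624 and 423 in media. The 3 wild-type arrays with DNA were the lowest. The transcript fell by 1.65 with DNA (limma adjusted p = 0.0014) and was 1.75 ± 0.25 higher in knockout than in wild-type cells with DNA (limma adjusted p = 9e-04). Pts, the middle step, fell by 0.76 (limma adjusted p = 0.029), and Qdpr and Pcbd2, which recycle the cofactor, fell by 0.56 and 0.68 (limma adjusted p = 0.021 and 0.026). The calls of Pts, Qdpr and Pcbd2 were lost under centring on the median of the probe sets past the filter (limma adjusted p = 0.13, 0.28 and 0.15) and without single arrays, and that of Spr was kept. The call of Pts was also lost under quantile normalization (limma adjusted p = 0.095), and that of Pcbd2 with only the 2 groups compared (limma adjusted p = 0.055). Qdpr gave 0.41 for knockout against wild type (limma adjusted p = 0.076, and 0.02 to 0.55 over 11 alternatives). Its other probe set gave -0.82 for DNA against media and 0.63 for knockout against wild type (limma adjusted p = 0.012 and 0.039). Gchfr, the feedback regulator of GTP cyclohydrolase, gave -0.81 ± 0.36 for knockout against wild type (limma adjusted p = 0.12, and 0.028 with the array number as a block). For DNA against media it gave -0.08, whose direction turned with the scaling.

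Of the polyamine genes 11 of 14 were tested: 2 rose and 3 fell with DNA, and 3 were higher and 2 lower in knockout than in wild-type cells. In each comparison 45.5% were called, beside 33.6% and 31.5% of all genes. Srm, spermidine synthase, read 1330, 2140 and 2200 in knockout arrays, 232, 506 and 553 in wild-type arrays with DNA, and 1060, 1960 and 2200 in media, with no overlap between the wild-type arrays with DNA and the rest. It fell by 2.0 with DNA (limma adjusted p = 0.0035) and was 2.15 ± 0.37 higher in knockout than in wild-type cells (limma adjusted p = 0.0023). Mtap, which clears the by-product of polyamine synthesis, fell by 1.66 (limma adjusted p = 0.0034, and 0.052 without the arrays numbered 2). Dohh, which modifies the spermidine-dependent residue of a translation factor, fell by 1.04 (limma adjusted p = 0.0035, and 0.057 without the arrays numbered 2), while its other probe set gave -0.28 (limma adjusted p = 0.69).

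The polyamine genes that rose break polyamines down. Smox, spermine oxidase, read 2330, 2500 and 2610 in knockout arrays, 5720, 5710 and 5800 in wild-type arrays with DNA, and 2070, 1730 and 1770 in media. Each group was narrow and the wild-type arrays with DNA were the highest. The knockout arrays lay above the media arrays, by 0.42 ± 0.12, which was not called (limma adjusted p = 0.35). Smox rose by 1.63 ± 0.12 with DNA (limma adjusted p = 9.5e-05) and was lower in knockout than in wild-type cells, at -1.21 ± 0.12 (limma adjusted p = 0.00022). Its other probe set gave 0.91 and -1 (limma adjusted p = 0.03 and 0.02). Sat1, the acetyltransferase that starts polyamine export, rose by 0.85 ± 0.17 (limma adjusted p = 0.0042) and was lower in knockout cells, at -0.89 ± 0.17 (limma adjusted p = 0.0031). Both Sat1 calls were lost without the arrays numbered 2 (limma adjusted p = 0.054 for both). Azin1, the antizyme inhibitor that spares ornithine decarboxylase, did not pass the test, at -0.26 ± 0.14 for DNA against media (limma adjusted p = 0.16). It gave 0.04 under centring on the median of the probe sets past the filter, the opposite direction.

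**Figure D4:**
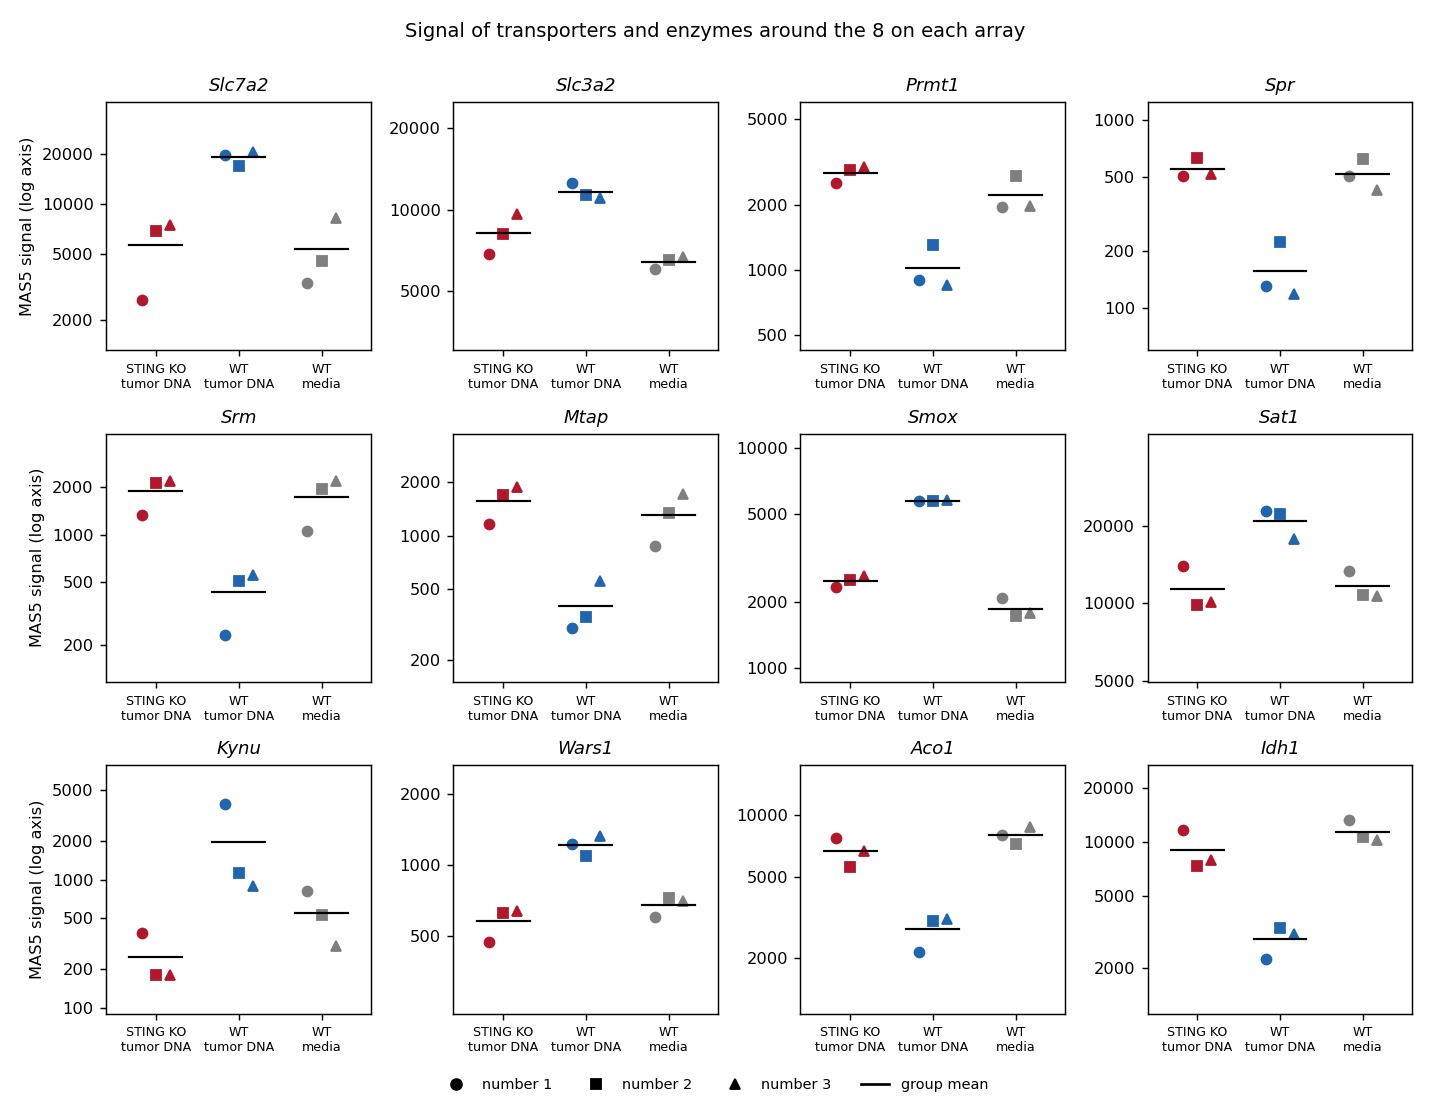
MAS5 signal (log axis) of 12 transporters and enzymes around the 8 members on each array, with group means as lines. Wild-type arrays with tumor DNA are the 3 highest for Slc7a2, Slc3a2, Smox, Sat1, Kynu, Wars1 and the 3 lowest for Prmt1, Spr, Srm, Mtap, Aco1 and Idh1. The 12 were picked from the pathway genes named in the text. Gatm, Kmo, Slc7a1, Ido2 and Ahr, whose wild-type arrays with DNA overlap the media arrays, are not drawn. The share of all genes that separate in this way was not counted.

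Of the tryptophan genes 13 of 15 were tested: 3 rose and 0 fell with DNA, and 1 was higher and 4 lower in knockout than in wild-type cells. That is 23.1% and 38.5% called, beside 33.6% and 31.5% of all genes. With the array number as a block 3 rose and 2 fell (Haao and Kyat1), and 2 were higher and 4 lower. Kynu, kynureninase, read 386, 181 and 182 in knockout arrays, 3880, 1120 and 893 in wild-type arrays with DNA, and 817, 526 and 302 in media. The wild-type arrays with DNA were the highest, and array 1 was the highest of each group. Its rise of 1.60 ± 0.55 was at the edge of the threshold (limma adjusted p = 0.048) and was lost under 6 alternatives (highest limma adjusted p = 0.063) and with single arrays left out (up to 0.15), and the knockout difference was -2.67 ± 0.55 (limma adjusted p = 0.0053, and 0.05 without the arrays numbered 2). A second Kynu probe set gave 1.47 for DNA against media (limma adjusted p = 0.029) and -1.29 for knockout against wild type (limma adjusted p = 0.052). Wars1, the cytosolic tryptophanyl-tRNA synthetase, rose by 0.82 ± 0.17 (limma adjusted p = 0.0062, and 0.085 without the arrays numbered 3) and was lower in knockout cells, at -1.06 ± 0.17 (limma adjusted p = 0.0018). Slc7a8, a neutral amino acid transporter, rose by 1.05 ± 0.18 (limma adjusted p = 0.0026) and was lower in knockout cells, at -1.48 ± 0.18 (limma adjusted p = 5e-04).

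Other genes around Ido1 did not all follow. Ido2, a related dioxygenase, gave 0.68 ± 0.40 for DNA against media (limma adjusted p = 0.22) at signals of 30.1 to 66.1 in knockout arrays, 41.2 to 54 in wild-type arrays with DNA and 13 to 55.2 in media. Kmo, the next hydroxylase of the kynurenine pathway, differed by 0.25 ± 0.35 between DNA and media (limma adjusted p = 0.63) and was lower in knockout than in wild-type cells with DNA, at -1.26 ± 0.35 (limma adjusted p = 0.021, a call lost without wild-type array 2 with DNA at 0.069, and without knockout arrays 2 or 3 at 0.073 or 0.056). Ahr, the receptor for kynurenines, was higher in knockout cells by 1.07 ± 0.34 (limma adjusted p = 0.037) with overlapping arrays, and the call was lost under 5 alternatives (highest limma adjusted p = 0.18) and without several single arrays. Its other probe set gave 0.2 (limma adjusted p = 0.84).

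Of the itaconate and citrate cycle genes 21 of 22 were tested. The list also holds genes outside the mitochondrial cycle, among them Idh1, Aco1, Mdh1, Acly and Slc25a1. In wild-type cells 10 fell and 0 rose with DNA, and in knockout against wild-type cells 11 were higher and 0 lower. The shares called were 47.6% and 52.4%, beside 33.6% and 31.5% of all genes. With the array number as a block 16 fell and 12 were higher, with 0 in the other direction. Under centring on the median of the probe sets past the filter 5 fell and 7 were higher, still with 0 in the other direction. Idh1, the cytosolic isocitrate dehydrogenase, read 11700, 7370 and 7960 in knockout arrays, 2240, 3330 and 3110 in wild-type arrays with DNA, and 13300, 10700 and 10200 in media. The wild-type arrays with DNA were the 3 lowest. Idh1 fell by 1.99 with DNA (limma adjusted p = 0.00036) and was 1.62 ± 0.21 higher in knockout than in wild-type cells (limma adjusted p = 0.00061). Aco1, the cytosolic aconitase that doubles as an iron regulatory protein, fell by 1.54 (limma adjusted p = 0.00048) and was 1.26 ± 0.18 higher in knockout cells (limma adjusted p = 0.00085). Fh1, fumarase, and Idh3b, a subunit of the mitochondrial isocitrate dehydrogenase, fell by 1.25 and 0.81 (limma adjusted p = 0.002 and 0.004).

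Some markers of other cell types also differed between the groups. Mast cell and basophil markers (all 6 measured) summed to 258 to 306 in knockout arrays, 1310 to 3490 in wild-type arrays with DNA and 371 to 1190 in media. Of the 6, 1 rose with DNA in wild-type cells (Hdc, which makes histamine, by 4.14, limma adjusted p = 0.0021, and by 3.32 or 4.86 with an offset of 64 or 0) and 4 were lower in knockout than in wild-type cells with DNA, while Kit was 51.8, 49 and 77.8 in knockout arrays, 65.7, 63.6 and 49.5 in wild-type arrays with DNA and 114, 9.23 and 44.2 in media. Of the macrophage markers 2 of 8 rose with DNA and 3 were lower in knockout than in wild-type cells (25% and 37.5% called). Of all genes 33.6% were called for DNA against media (9.94% higher) and 31.5% for knockout against wild type (9.73% lower). Of 9 dendritic cell markers tested 1 rose and 1 fell with DNA, and 1 was higher in knockout cells. Of the neutrophil markers 0 of 8 were called with DNA, and 1 was lower in knockout cells. Neutrophil markers (8 of 10 measured) summed to 35000 to 41800, 24900 to 91300 and 17200 to 71200 in knockout, wild-type DNA and media arrays. T and NK cell markers (7 of 8 measured) summed to 156 to 218, 141 to 235 and 146 to 179, with Cd3e, Cd3g, Cd3d, Ncr1, Nkg7 and Gzma below the array median on all 9 arrays. B cell markers (4 of 5 measured) summed to 148 to 307, 360 to 2280 and 286 to 1250. The part of these cells in the values of the 8 members was not tested.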

How the data were processed

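The authors deposited linear signal intensities. The submitters' processing notes name MAS5 without a version and state no genome build. No detection calls were used. Of 45037 non-control probe sets 34945 carried a single gene symbol, and a gene was named only from these. Signals were analysed as log2(signal + 16); probe sets above the 40th percentile of mean level (5.67) were kept, and the one with the highest mean stood for its gene, which left 12586 genes. limma 3.58.1 in R 4.3.3 (lmFit, eBayes with an intensity trend) was fitted to all 9 arrays without the array number, with 2-sided p-values adjusted over all genes of a comparison. A second fit over all non-control probe sets without a filter gave the values of Nos2 and of probe sets that did not stand for their gene. The models were tested on simulated data with 200 changed genes among 12586. A log2 change of 1 was called in 25% of them for DNA against media in wild-type cells. The share was 34% for knockout against wild type with DNA and 26.5% for knockout with DNA against media. With a log2 change of 2 the shares were 79%, 85.5% and 85% in the same order. A gene that did not pass the test may therefore still differ by a log2 change of 1. The number of arrays limits the precision.

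The members, gene lists, tests and alternatives were chosen with earlier results of these data known. Named were all 8 members, Sting1, a fixed set of further pathway genes whatever their result, and up to 3 called genes for each list and comparison. Arrays of the same number deviated together (residual correlation 0.17 to 0.49 over 9 pairs, against -0.42 to 0.14 for other pairs). The numbers in the titles were therefore taken as pairs in an alternative fit with the number as a block. The main fit, its standard errors and its counts leave the number out. With the block 5634, 5407 and 176 genes were called in the 3 comparisons, against 4224, 3970 and 54. The blocked result appears beside a member or named pathway gene whose call it alters, and beside the counts of pathway lists that it alters.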

Additional observations from a re-analysis of the deposited data

How the results depend on the processing

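Low signals without detection calls and 3 arrays a group limit what can be seen: Ido1 and Ido2 are bounded only by wide intervals, and leaving out the 3 arrays of a number leaves 2 a group. Over the 7 members tested, 76 of 77 values of the alternatives kept their direction and their side of the threshold for DNA against media, 76 of 77 for knockout against wild type with DNA, and 74 of 77 for knockout with DNA against media. With an array or an array number left out the counts were 76, 81 and 67 of 84. The causes of the changes below were not tested.

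In the first comparison the genes called were 7284 (2309 higher, 4975 lower) over all probe sets past the filter, where more features are tested, and 2038 higher and 1451 lower under centring on the median of the probe sets past the filter, an alternative chosen after seeing the data. In the second they were 6796 (4541 and 2255) over all probe sets, and 1456 higher and 1805 lower under that centring. Centring on the median of all probe sets and quantile normalization gave 27.7% and 38.3% of calls higher in the first comparison. For knockout with DNA against media the replicate block gave 176 (86 higher, 90 lower), the 2 groups alone 30 (11 and 19) and all probe sets 103 (51 and 52). With arrays left out the calls ranged from 1489 to 4209 (475 to 1287 higher, 1014 to 2922 lower), from 1368 to 3930 (846 to 2693 higher, 522 to 1249 lower) and from 4 to 129 (1 to 36 higher, 3 to 93 lower) in the 3 comparisons, and the members called for knockout against wild type from 2 to 4. The lowest counts of genes came without the arrays numbered 3. The replicate block changed the calls of members only for Ass1 and for 1 Odc1 probe set.

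Directions turned in small differences. For DNA against media Gchfr gave 0.05 under quantile normalization and 0.23 under centring on the probe sets past the filter, where Azin1 gave 0.04 and an Odc1 probe set 0.28. For knockout against wild type another Odc1 probe set gave -0.03 and -0.02 under these scalings. For knockout with DNA against media Ass1 gave 0.02 with an offset of 64, 0.06 under quantile normalization and 0.03 under that centring, and Nos2 -0.01 under quantile normalization. With arrays left out the differences for DNA against media were -0.12 to 0.5 for Odc1, -0.28 to 0.21 for its other probe set, -0.31 to 0.29 for Gchfr, -0.28 to 0.43 for Gatm and -0.3 to 0.73 for Kmo. For knockout against wild type they were -0.98 to 0.02 for Arg2, -0.27 to 0.16 for Ido2 and -0.09 to 0.64 for an Odc1 probe set. For knockout with DNA against media they were -0.28 to 0.54 for Arg1, -0.16 to 0.14 for Acod1, -0.44 to 0.41 for Ido1, -0.25 to 0.51 for Gch1, -0.27 to 0.33 for its other probe set, -0.4 to 0.53 for Ass1 and -0.13 to 0.11 for Nos2.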

Other observations

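For each member that passed the filter the 3 most similar patterns over the 9 arrays, by Pearson r of log2(signal + 16) among the genes tested, were as follows, as a description without a p. The arrays share 3 groups, so genes with a like difference between groups come out alike. Acod1 was most like Clec4e (0.987), a receptor of the C-type lectin family, Hspa1a (0.987) and Hspa1b (0.986), which encode inducible heat shock proteins. Gch1 was most like Ell2 (0.991), a transcription elongation factor, Mmp13 (0.987), a collagenase, and Atxn7l1 (0.986). Arg2 was most like Upk1a (0.952), Exoc6 (0.947) and Shisal2b (0.929), and Arg1 was most like Eif1b (0.968), Tnrc6a (0.953) and Myo19 (0.949). Odc1 was most like Mettl6 (0.963), 5830432E09Rik (0.928) and Denr (0.927), Ido1 like Aqp11 (0.957), Lncppara (0.944) and Slc16a9 (0.937), and Ass1 like Ccdc162 (0.978), 4930459C07Rik (0.977) and Atp1b2 (0.975).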
